A study of Mus musculus with 18 samples.

Results

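Thymic regulatory T cells (Tregs) lacking CD25 were compared with wild-type (WT) thymic Tregs by RNA-seq over every gene of the deposited count table. The comparison takes 10 of the 18 libraries of the series, 5 from CD25 KO mice and 5 from WT mice. Each library came from 1 mouse, so p-values measure the spread between mice. In the CD25 KO mice a floxed *Il2ra* gene, which encodes CD25, was inactivated by a Cre recombinase expressed from the *Foxp3* locus together with YFP (Foxp3 YFP/Cre), and Tregs were purified as YFP+ cells. The WT mice carried intact *Il2ra* and a Foxp3/RFP reporter, and their Tregs were purified as RFP+ cells. All mice were 3 to 4 weeks old, and both lines are described as C57BL/6. The CD25 KO mice had been "cured" of autoimmunity by intravenous transfer of WT splenocytes as neonates, a treatment that the labels give for these mice and not for the WT mice. Loss of CD25, reporter allele, mouse line and cell transfer therefore cannot be told apart in this comparison.

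Tregs are CD4+ T cells that express the transcription factor Foxp3 and restrain immune responses. CD25 gives the IL-2 receptor its high affinity, and the receptor signals through JAK kinases and the transcription factor STAT5, with further signals through PI3K and MAPK. For the thymus, the study proposes an early IL-2-dependent step in the survival and expansion of Treg precursors and a later step in their functional maturation. The most mature thymic Tregs share receptors, adhesion molecules and transcription factors with activated Tregs of peripheral tissues.

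Each library held 17239774 to 23993674 counts, and 16986 genes passed the filter on low counts. Levels are given in CPM, the count of a gene scaled to the size of its library, in the order of libraries 1 to 5. *Il2ra* was at 681, 654, 537, 702 and 555 CPM in WT and at 107, 291, 99, 243 and 99.2 CPM in CD25 KO, where transcripts of the inactivated gene can still be counted. The highest CD25 KO value was below the lowest WT value (log2 fold change −1.90 ± 0.30 (SE), adjusted p = 0.00239, edgeR quasi-likelihood test with Benjamini-Hochberg adjustment, as for all adjusted p-values here). CD25 KO libraries 2 and 4 kept more *Il2ra* counts than the other 3. Over the genes that fell both with and without the correction described next, these were the highest 2 of the 5 CD25 KO libraries for 161 of 315 genes (51.1%), against 17% of all genes tested. The summed level of 11 Treg markers was 4420 to 5387 CPM in WT and 4304 to 4881 CPM in CD25 KO, and 5 of the 11, *Lrrc32* and *Tnfrsf4* among them, were lower without the correction (4 with it as well).

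At FDR < 0.01, CD25 KO libraries had 508 lower genes (2.99% of those tested) and 539 higher genes (3.17%). With upper-quartile scaling of the libraries in place of TMM scaling, the split was 440 lower and 808 higher genes, and the median over all genes went from −0.002 to 0.03. Without regard to any test, the groups did not overlap for 8.47% of the genes on the lower and 7.88% on the higher side. At an unadjusted p under 0.05 in edgeR, 3143 of the 16986 genes were lower and 3290 higher. Genes rich in G and C had lower log2 fold changes than genes poor in them (rank correlation −0.40 by Spearman's method, across 16945 genes, which are not independent replicates). In the plot of fold change by GC content, the median log2 fold change was 0.35 in the decile of genes with the lowest GC content and −0.13 in the decile with the highest. Each library had its own slope. The difference in log2 level between the GC-richest and the GC-poorest decile, relative to the mean of the 10 libraries, was between 0.06 and 0.60 in WT and between −0.61 and −0.03 in CD25 KO, so the groups did not overlap. WT library 2 and CD25 KO library 5 lay at the ends. The slope moves with the groups, and its part in the fold changes was therefore measured by removing each library's smooth GC trend as an offset in the same fit.

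With the GC offset, 420 genes were lower (2.47%) and 297 higher (1.75%), and the correlation was 0.00023. Of the 508 lower calls 315 were made in both fits (62%), and of the 539 higher calls 221 (41%), which is 1.85% and 1.3% of the genes tested. The trend reached the higher genes most. The decile with the lowest GC content held 193 higher calls, of which 19 were also made with the offset, and the decile with the highest GC content held 75 lower calls, of which 35 were. Of the genes called in both fits, 113 of the 315 lower genes and 49 of the 221 higher genes differed by more than 2-fold. The groups did not overlap for 311 of the 315 and 219 of the 221, so a lack of overlap adds little to a call. Unless stated otherwise, a gene described below as lower or higher passed FDR < 0.01 in both fits. Counts at an unadjusted p and counts from DESeq2 are given without the offset, and over all genes DESeq2 called 1246 lower and 1517 higher.

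**Figure D1:**
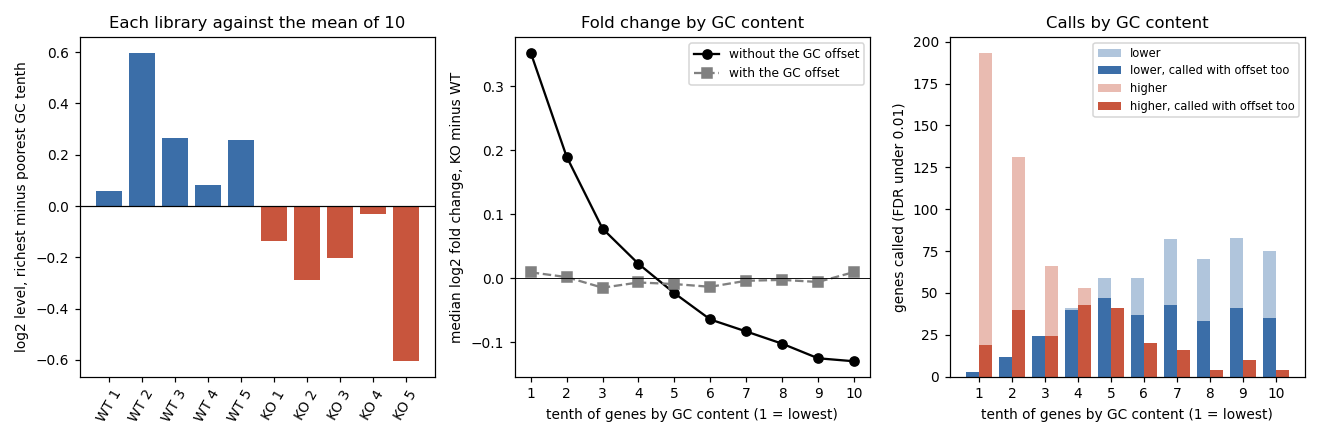
GC content and the comparison of CD25 KO with WT thymic Tregs. Left, log2 level of the GC-richest minus the GC-poorest decile of genes in each library, relative to the mean of all 10; centre, median log2 fold change (CD25 KO minus WT) in each decile of genes by GC content, without and with the GC offset; right, genes called at FDR < 0.01 in each decile, with those also called under the offset in full colour. The WT bars are all above 0 and the CD25 KO bars all below, and most higher calls in the lowest decile (193) were not made with the offset (19 were).

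Of 35 cytokine receptors tested, edgeR called 6 lower and none higher (5 were higher at an unadjusted p under 0.05, and DESeq2 called 9 lower and 2 higher), and the median log2 fold change of the list was −0.17, against −0.002 over all genes. *Il1rl1* encodes ST2, the receptor for IL-33, which marks Tregs of non-lymphoid tissue. It was at 7.41, 6.14, 5.52, 15.1 and 7.36 CPM in WT and at 0.203, 0.624, 0.0561, 0.701 and 0 CPM in CD25 KO, with no overlap of the groups (log2 fold change −4.62 ± 0.52 (SE), adjusted p = 0.000355). *Il18r1*, which encodes a subunit of the IL-18 receptor, was at 43, 37.5, 38.4, 46.2 and 35.3 CPM against 23.1, 22.9, 28.4, 27.4 and 19.1 CPM (log2 fold change −0.73 ± 0.11 (SE), adjusted p = 0.00209). *Il10ra*, the ligand-binding chain of the IL-10 receptor, was at 24.1, 26.4, 26.9, 27.8 and 22.1 CPM against 4.48, 9.88, 6.45, 11.6 and 2.44 CPM (log2 fold change −1.86 ± 0.30 (SE), adjusted p = 0.00265). In each of these genes the highest CD25 KO value stayed below the lowest WT value. *Il9r*, the receptor for IL-9 (−1.89 ± 0.31), *Il2rb*, the beta chain shared by the receptors for IL-2 and IL-15 (−0.80 ± 0.12), and *Il4ra*, the chain shared by the receptors for IL-4 and IL-13 (−0.46 ± 0.07), were also lower on the log2 scale. The decoy receptor gene *Il1r2* was called without the offset and not with it (adjusted p = 0.00889 and 0.0114). Of 20 receptors of the TNF family, *Tnfrsf4*, which encodes the costimulatory receptor OX40, was the 1 lower in both fits (−0.55 ± 0.08).

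Of 49 chemokine receptors and other G protein-coupled receptors, 5 were lower and none higher in both fits, with a list median of −0.17. *Lpar6* and *Gpr174*, receptors for lysophospholipids, were higher without the GC offset (0.64 and 0.65) and not called with it (0.19 for each, adjusted p = 0.108 and 0.0522), and DESeq2 called 2 higher. *Ccr4*, a receptor for CCL17 and CCL22 that guides thymocytes to the medulla and Tregs to skin, was at 22.9, 22.6, 30.6, 26.4 and 27.4 CPM in WT and 8.24, 9.84, 9.76, 9.21 and 7.01 CPM in CD25 KO (log2 fold change −1.56 ± 0.12 (SE), adjusted p = 1.27e-05). The WT libraries were all above 22 CPM and the CD25 KO libraries all below 10 CPM. *Gpr15*, a homing receptor for the large intestine, was near the limit of detection in CD25 KO, at 0, 0.096, 0.224, 0.187 and 0.163 CPM against 2.04, 1.32, 1.1, 1.65 and 1.13 CPM in WT (adjusted p = 0.000584). *Gpr83*, an orphan receptor enriched in Tregs (−1.04 ± 0.16), and *Gpr146* (−0.43 ± 0.06) were also lower.

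Inhibitory and costimulatory receptors moved in both directions. Of 29 tested, 4 were lower and 2 higher, and the list median was 0.06. *Tigit*, an inhibitory receptor for CD155, was at 8.4, 7.51, 6.02, 9.93 and 6.67 CPM in WT and 1.27, 1.63, 1.18, 1.68 and 0.598 CPM in CD25 KO (log2 fold change −2.58 ± 0.23 (SE), adjusted p = 6.6e-05). *Cd80* was at 7.16, 6.48, 4.83, 10.2 and 6.14 CPM against 1.12, 1.92, 0.729, 1.68 and 0.435 CPM (log2 fold change −2.54 ± 0.32 (SE), adjusted p = 0.000794). The related gene *Cd86* was opposite, at 17.4, 18.6, 16.6, 17.3 and 21.1 CPM in WT against 33.9, 25.2, 33.1, 22.1 and 36.7 CPM in CD25 KO (log2 fold change 0.73 ± 0.13 (SE), adjusted p = 0.00438). Both encode B7 ligands of CD28 and CTLA-4, so this pair of ligands changed in opposite directions in the same libraries, without overlap of the groups in either gene. *Cd274*, which encodes PD-L1, was also higher (0.32 ± 0.06), and *Icos* was lower (−0.38 ± 0.08). *Klrg1*, a receptor of highly differentiated lymphocytes, had 2.19, 1.88, 0.828, 4.28 and 1.74 CPM in WT and 0, 0.048, 0, 0 and 0 CPM in CD25 KO, where 1 count in all was found in the 5 libraries (adjusted p = 0.000281).

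**Figure D2:**
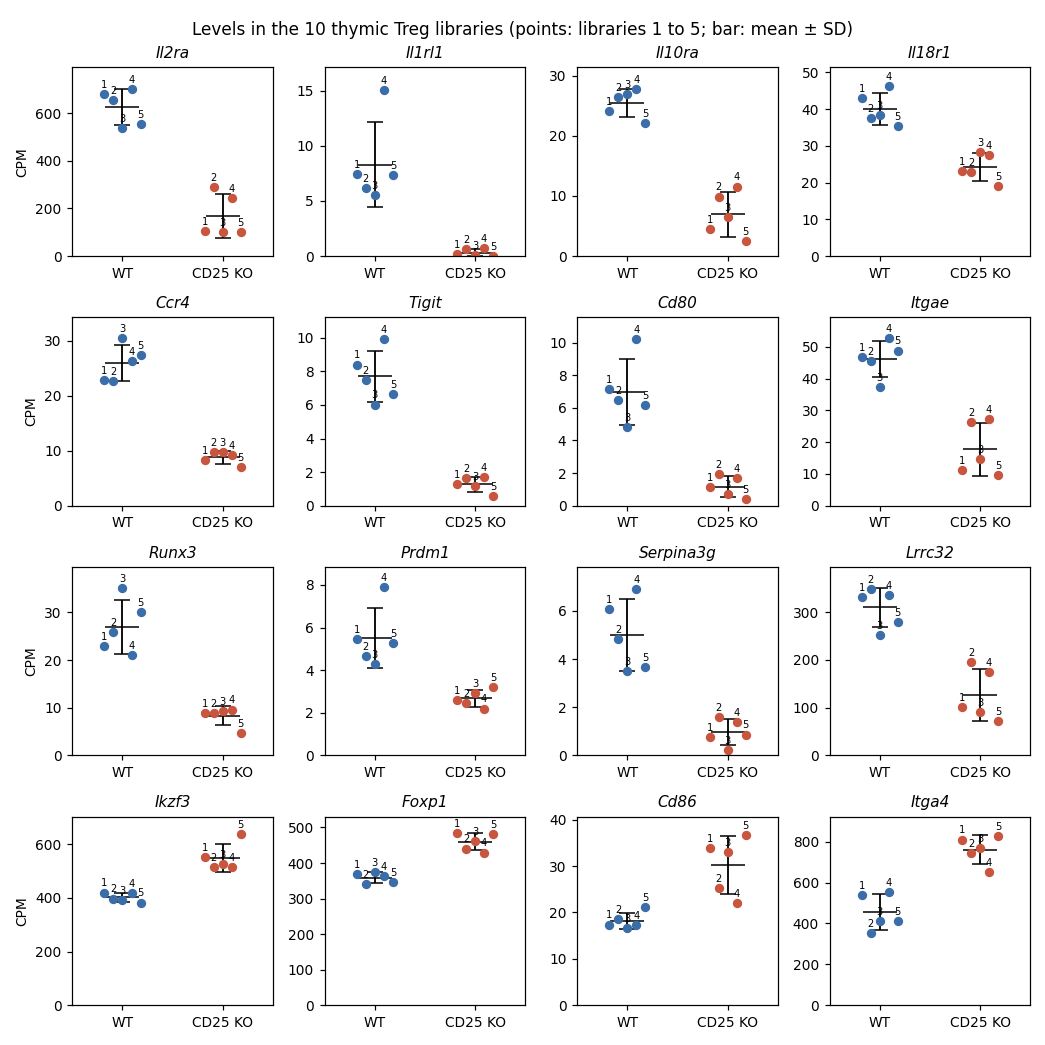
Levels of 16 genes in the 10 thymic Treg libraries, in CPM from 0 upward; each point is 1 library, numbered 1 to 5, and bars give mean ± SD (n = 5 per group). In the first 12 panels all CD25 KO points lie below all WT points, in the last 4 above, and CD25 KO libraries 2 and 4 lie nearest to WT in *Il2ra*, *Itgae* and *Lrrc32*.

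Adhesion molecules gave 6 lower and 2 higher genes of 57 tested. *Itgae* encodes CD103, an integrin chain that binds E-cadherin of epithelia, and it was at 46.8, 45.5, 37.4, 52.8 and 48.9 CPM in WT and at 11.2, 26.2, 14.6, 27.2 and 9.56 CPM in CD25 KO (log2 fold change −1.38 ± 0.26 (SE), adjusted p = 0.00497). *Itgb1*, the beta 1 integrin chain, was at 158, 159, 158, 180.0 and 170.1 CPM against 98.3, 101, 84.9, 100.4 and 96.5 CPM (log2 fold change −0.78 ± 0.06 (SE), adjusted p = 1.54e-05). *Itga4*, an alpha chain that pairs with beta 1, was higher, at 539.8, 353, 413, 553 and 412 CPM against 811, 746, 769.8, 651 and 829 CPM (log2 fold change 0.74 ± 0.12 (SE), adjusted p = 0.00248). None of these 3 genes overlapped between the groups. *Icam1* (−0.52 ± 0.08), *Cd48* (−0.54 ± 0.07), *Jaml* (−0.58 ± 0.11) and *Selplg*, the gene of the selectin ligand PSGL-1 (−0.38 ± 0.06), were lower, and *Nrp2*, a semaphorin receptor, was higher (0.52 ± 0.11) with overlapping groups.

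Of 38 genes of selectin ligands and the enzymes that build them, 3 were lower, *Selplg* and 2 enzymes, and 1 enzyme was higher, with a list median of −0.08. *Chst2*, a sulfotransferase, fell from 6.07, 5.08, 6.02, 7.58 and 6.36 CPM in WT to 2.24, 2.54, 2.02, 2.94 and 1.79 CPM (log2 fold change −1.42 ± 0.16 (SE), adjusted p = 0.000355), and *Gcnt1*, which starts core 2 branches on O-glycans, also fell (−1.28 ± 0.28). The fucosyltransferase gene *Fut7* was called without the offset and not with it (adjusted p = 0.00736 and 0.0129). *St8sia6*, a sialyltransferase, was higher (0.74 ± 0.12). Genes of cytoskeleton and motility gave 6 lower and no higher calls of 66. They were *S100a4* (−2.87 ± 0.43), *S100a6* (−1.81 ± 0.29), *S100a11* (−0.91 ± 0.15), *S100a10* (−0.61 ± 0.07), the myosin gene *Myo1f* (−1.29 ± 0.22) and *Vim*, which encodes vimentin (−0.63 ± 0.13). *Vim* and *St8sia6* both lie within 2 Mb of *Il2ra*, the gene floxed in the CD25 KO mice. The S100 proteins are small calcium-binding proteins that are abundant in activated and memory T cells.

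Of 70 secreted factors tested, edgeR called 10 lower and none higher (7 were higher at an unadjusted p under 0.05, and DESeq2 called 16 lower and 2 higher), and the list median was −0.26 (−0.16 with the GC offset). *Lamc1*, the laminin gamma 1 chain, was at 50.2, 48.3, 40.7, 53.5 and 45.3 CPM in WT and 14.7, 18, 11.3, 16.6 and 10.9 CPM in CD25 KO (log2 fold change −1.73 ± 0.14 (SE), adjusted p = 1.54e-05). *Tnf* was at 12.3, 13.9, 17.2, 13.5 and 15.6 CPM against 4.43, 7.15, 5.16, 8.09 and 4.78 CPM (log2 fold change −1.29 ± 0.17 (SE), adjusted p = 0.001). *Ccl5*, a chemokine of effector lymphocytes, was at 6.37, 6.06, 4.97, 8.47 and 5.88 CPM against 0.509, 2.25, 0.729, 2.66 and 0.543 CPM (log2 fold change −2.21 ± 0.39 (SE), adjusted p = 0.00397). These genes did not overlap between the groups. The inhibitors of proteases *Serpina3g* (−2.33 ± 0.35) and *Ctla2a* (−1.96 ± 0.31), the matrix protein gene *Ecm1* (−1.24 ± 0.17) and the growth factors *Pdgfb* (−1.07 ± 0.21) and *Bmp7* (−0.93 ± 0.18) were lower as well, beside *Fgl2* and *Lta*, whose products are known effector molecules.

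Of 36 genes of TGF-beta, BMP and activin signaling, 4 were lower and 1 higher, with a list median of −0.07 (−0.03 with the GC offset). *Lrrc32* encodes GARP, which displays latent TGF-beta on the Treg surface, and it was at 332, 348, 252, 336 and 279.7 CPM in WT and 102, 196, 91.6, 174 and 71.3 CPM in CD25 KO (log2 fold change −1.28 ± 0.24 (SE), adjusted p = 0.00497). *Furin*, the protease that cleaves pro-TGF-beta, was at 87, 92.5, 81.3, 96.3 and 90.4 CPM against 54, 69, 50.9, 71.6 and 45.2 CPM (log2 fold change −0.62 ± 0.12 (SE), adjusted p = 0.00478). *Nrros*, a relative of GARP (−0.33 ± 0.05), and *Fkbp1a*, which binds type I receptors of the family (−0.48 ± 0.07), were lower, and the activin receptor gene *Acvr2a* was higher (0.77 ± 0.12). For *Lrrc32* and *Furin*, CD25 KO libraries 2 and 4 were again the highest of their group, and all CD25 KO values were below all WT values.

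Of 210 transcription factors tested, 13 were lower and 5 higher, with a median of −0.03. *Runx3*, which drives cytotoxic and tissue-resident programs, was at 22.9, 25.9, 35.1, 21 and 30.1 CPM in WT and 8.9, 8.97, 9.37, 9.63 and 4.73 CPM in CD25 KO (log2 fold change −1.70 ± 0.19 (SE), adjusted p = 0.000355). *Prdm1*, the gene of Blimp-1, was at 5.47, 4.65, 4.28, 7.9 and 5.27 CPM against 2.6, 2.45, 2.92, 2.2 and 3.21 CPM (log2 fold change −1.05 ± 0.18 (SE), adjusted p = 0.00366). *Irf4*, a partner of Blimp-1 in effector Tregs, was at 104, 104, 104, 104 and 114 CPM against 43.7, 78.3, 52.5, 79.8 and 49 CPM (log2 fold change −0.81 ± 0.15 (SE), adjusted p = 0.00497). All 3 genes were separated between the groups, and the lowest WT value of *Runx3* was more than 2 times the highest CD25 KO value. *Nfil3* (−1.42 ± 0.29), *Zbtb32* (−1.25 ± 0.21), *Klf9* (−1.01 ± 0.19) and *Irf5* (−0.79 ± 0.11) fell by more than 0.7 on the log2 scale. *Nfix*, *Klf2*, *Tfe3*, *Plagl2*, *Xbp1* and *Etv6* fell by less, with log2 fold changes of −0.62 to −0.41. *Klf2* controls the sphingosine 1-phosphate receptor and thymic egress, and *Xbp1* the unfolded protein response.

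The transcription factors that rose are known from lymphocyte development and interferon responses. *Ikzf3* (Aiolos) was at 420.0, 397, 393, 418 and 383 CPM in WT and 551, 514, 526, 514 and 638 CPM in CD25 KO (log2 fold change 0.45 ± 0.07 (SE), adjusted p = 0.00196). *Foxp1*, which keeps T cells quiescent, was at 369, 341, 375, 364 and 345 CPM against 484, 441, 463, 429 and 482 CPM (log2 fold change 0.36 ± 0.05 (SE), adjusted p = 0.00199). These increases were of less than 1.5-fold but the groups did not overlap. *Irf1* (0.34 ± 0.07) and *Lmo4* (0.42 ± 0.09) were also higher. *Tox*, *Mef2a*, *Klf7*, *Clock* and *Pou2f1* were higher without the GC offset and not called with it. Of 60 interferon-stimulated genes, 2 were higher, among them *Gbp8* (0.56 ± 0.10), and *Ly6a*, which encodes Sca-1, was lower (−1.02 ± 0.11), with a list median of 0.05.

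Fewer genes of the other signaling lists were called. Of 42 NF-kB genes, *Ripk1* (−0.48 ± 0.07) and *Traf6* (−0.27 ± 0.04) were lower. Of 54 genes of MAPK and calcium feedback, the ERK phosphatase gene *Dusp7* (−0.58 ± 0.07), *Rcan3* (−0.40 ± 0.07) and the regulator of G protein signaling *Rgs1* (−0.77 ± 0.14) were lower. Of 59 genes of PI3K, AKT and mTOR signaling, *Rragd*, a Rag GTPase that recruits mTORC1 to lysosomes, was lower (−2.40 ± 0.14). *Asb2*, a substrate receptor of a cullin ubiquitin ligase, was at 2.09, 2.35, 2.67, 1.51 and 1.31 CPM in WT and 0.254, 0.24, 0.561, 0.0935 and 0.815 CPM in CD25 KO (log2 fold change −2.36 ± 0.41 (SE), adjusted p = 0.00354). Of 36 genes of apoptosis, *Bcl2l1*, the gene of the survival protein Bcl-xL, was lower (−0.67 ± 0.12) and *Bcl2l11*, the gene of the death-promoting protein Bim, was higher (0.43 ± 0.06). *Bcl2l1* was at 80.2, 82.2, 71.1, 92.7 and 75.6 CPM against 46.9, 59, 44.8, 62.1 and 39.9 CPM, and *Bcl2l11* at 158, 150.5, 156, 145 and 174 CPM against 197, 215, 216, 211 and 220.5 CPM. Neither gene overlapped between the groups.

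**Figure D3:**
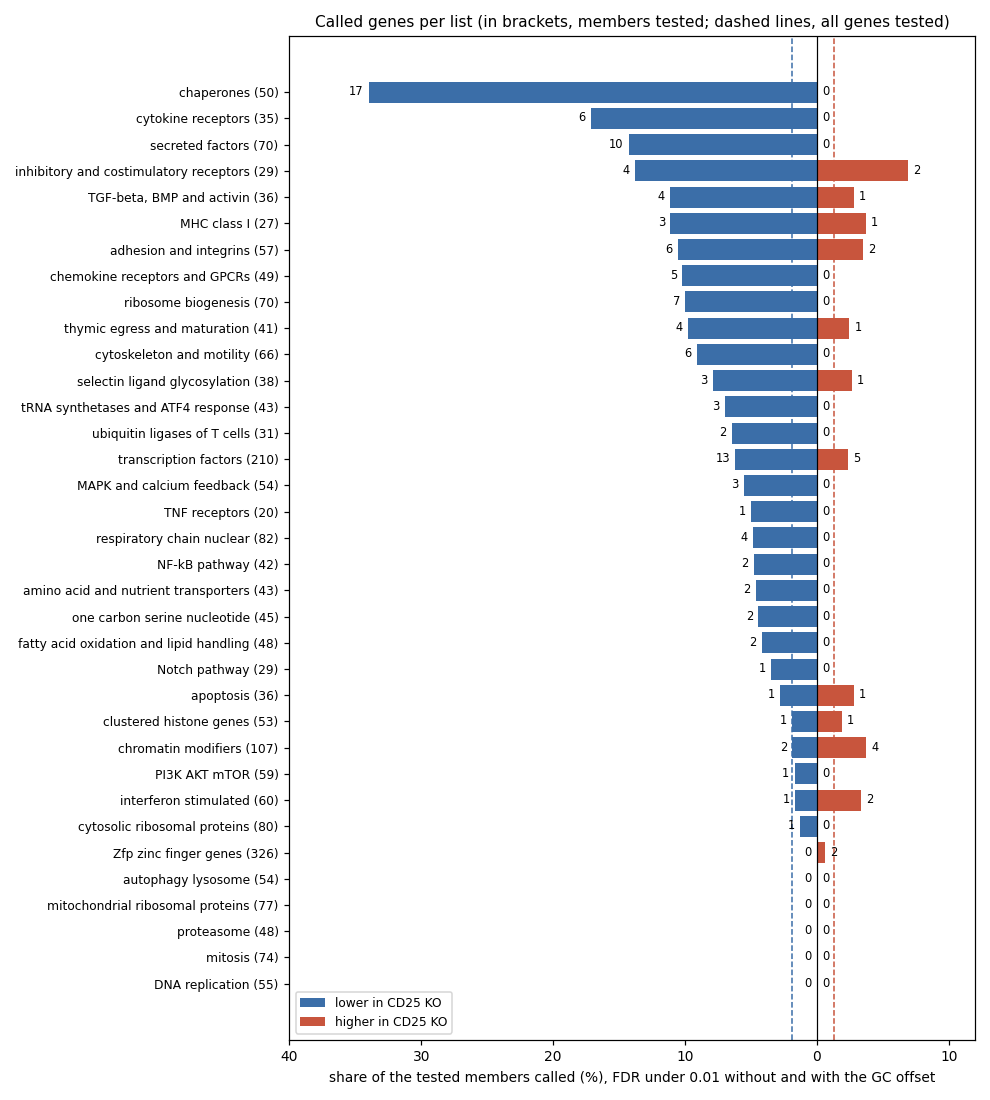
Share of each list's tested genes called at FDR < 0.01 both without and with the GC offset, lower in CD25 KO to the left and higher to the right, for lists with at least 20 genes tested, with the number of genes beside each bar and the number tested in brackets. Dashed lines give the share over all genes tested (1.85% lower and 1.3% higher), and the longest bar is that of the chaperones, with 17 of 50 lower.

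Chaperones had the largest share of lower genes among the lists with at least 20 genes tested. Of 50 tested, edgeR called 17 lower (34%) and none higher in both fits (DESeq2 called 28 lower and 2 higher), with a list median of −0.27. *Hspa1a* was at 1.99, 8.15, 6.48, 0.612 and 1.35 CPM in WT and at 0, 0.048, 0.224, 0.14 and 0.163 CPM in CD25 KO (log2 fold change −4.98 ± 0.86 (SE), adjusted p = 0.00363). *Hspa1b* was at 5.82, 26.6, 17, 2.35 and 4.1 CPM against 0.356, 0.72, 0.617, 0.608 and 0.489 CPM (log2 fold change −4.31 ± 0.68 (SE), adjusted p = 0.00241). These 2 neighbouring genes encode nearly the same heat-inducible protein, HSP70, so reads may be split between them, and within WT they varied by more than 10-fold, with libraries 2 and 3 the highest. *Dnajb1*, an HSP40 cochaperone, varied less, at 107, 146, 129.8, 103 and 153 CPM against 76.4, 86, 78.7, 84.5 and 81.9 CPM (log2 fold change −0.65 ± 0.10 (SE), adjusted p = 0.00246), and *Hsph1* (−0.81 ± 0.17) and *Hsp90ab1*, an HSP90 gene (−0.44 ± 0.07), were also lower. The mitochondrial chaperones *Hspa9* (−0.37 ± 0.05), *Hspd1* (−0.43 ± 0.08) and *Hspe1* (−0.39 ± 0.07), the cochaperone gene *Dnaja3* (−0.30 ± 0.06) and 4 subunits of the cytosolic chaperonin, *Cct6a* (−0.48 ± 0.08), *Cct3* (−0.40 ± 0.07), *Cct7* (−0.35 ± 0.07) and *Tcp1* (−0.32 ± 0.07), fell by less. In the endoplasmic reticulum, *Pdia4* (−0.47 ± 0.07), *Pdia3* (−0.28 ± 0.06) and *Calr* (−0.35 ± 0.07) were lower. The list also holds the transcription factor gene *Xbp1*, which is not itself a chaperone. *Dnajb9* was higher without the GC offset (1.00, adjusted p = 0.0024) and missed the threshold with it (0.75, adjusted p = 0.0141).

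Of 70 genes of ribosome biogenesis, edgeR called 7 lower and none higher in both fits (1 was higher at an unadjusted p under 0.05, and DESeq2 called 30 lower and 0 higher), 66 had a negative log2 fold change and the median was −0.25. *Polr1b*, a subunit of RNA polymerase I, was at 41, 43.5, 42.4, 46.8 and 40.7 CPM in WT and 28.6, 31.7, 29.2, 34.7 and 23.2 CPM in CD25 KO (log2 fold change −0.54 ± 0.09 (SE), adjusted p = 0.00356), and *Noc2l*, *Bop1*, *Nifk*, *Ddx21*, *Utp4* and *Nip7* were lower, with log2 fold changes of −0.41 to −0.29. The ribosomal proteins themselves gave 1 lower call of 80, *Rpl35a* (−0.38 ± 0.06), although 77 of 80 had a negative log2 fold change (median −0.14, and −0.09 with the GC offset). At an unadjusted p under 0.05, edgeR had 48 of them lower and 1 higher, and DESeq2 called 11 lower and 1 higher. Of 43 genes of tRNA synthetases and the ATF4 response to amino acid shortage, *Trib3* (−1.69 ± 0.22), *Aldh18a1* of proline synthesis (−0.56 ± 0.11) and the arginyl-tRNA synthetase gene *Rars* (−0.27 ± 0.06) were lower. In this list edgeR had 28 lower and 0 higher genes at an unadjusted p under 0.05, and DESeq2 called 18 lower and 0 higher. *Rars* missed the threshold in 17 of 36 alternatives, among them RLE and upper-quartile scaling, both other filters on low counts and the omission of any WT library without the offset. With upper-quartile scaling the medians were −0.21 for ribosome biogenesis and −0.10 for ribosomal proteins, of the same sign.

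Metabolic lists held few genes called in both fits. Nuclear genes of the respiratory chain gave 4 of 82, the ATP synthase genes *Atp5g1* (−0.48 ± 0.08) and *Atp5b* (−0.34 ± 0.06), *Ndufab1* (−0.51 ± 0.10) and *Cox7b* (−0.30 ± 0.06). The 43 transporter genes gave *Slc22a5*, the carnitine transporter (−0.56 ± 0.06), and *Slc16a1*, the lactate transporter MCT1 (−0.51 ± 0.08). The purine enzyme gene *Atic* (−0.55 ± 0.09) and *Mat2a*, which makes S-adenosylmethionine (−0.43 ± 0.09), were lower among 45 genes of one-carbon, serine and nucleotide metabolism. *Dgat2*, an enzyme of triglyceride synthesis, fell from 20.5, 22.4, 16.4, 24.3 and 20.4 CPM to 9.06, 12.7, 8.25, 13.4 and 6.19 CPM (log2 fold change −1.06 ± 0.19 (SE), adjusted p = 0.00388), and *Acsl5* fell as well (−0.40 ± 0.08). At an unadjusted p under 0.05, edgeR had 51 lower respiratory chain genes and 29 lower one-carbon genes, with none higher in either list. DESeq2 called 16 and 17 lower in these lists and none higher. Of these 82 and 45 genes, 72 and 42 had a negative log2 fold change. Transporters had 18 lower and 4 higher at the same unadjusted p, and genes of fatty acids and lipids 17 and 5. No gene of the proteasome (48), of mitochondrial ribosomes (77) or of autophagy and lysosome (54) was called in both fits. At an unadjusted p under 0.05, edgeR had 30, 21 and 11 lower and 2, 1 and 8 higher genes in these lists, and DESeq2 called 12, 7 and 4 lower and 2, 0 and 3 higher genes at its FDR < 0.01. Over all 16986 genes these counts were 3143 lower and 3290 higher in edgeR, and 1246 and 1517 in DESeq2. The lower counts of autophagy and lysosome were near that general share and the higher counts below it.

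Few cell-cycle genes were called, although most log2 fold changes were negative. Of 55 genes of DNA replication, 53 had a negative log2 fold change, the median was −0.37 and edgeR called none (13 were lower at an unadjusted p under 0.05, and DESeq2 called 1). Of 74 mitosis genes, 70 were negative, the median was −0.59, and *Smc4* was the only one called, higher without the GC offset (adjusted p = 0.00847) and not with it (adjusted p = 0.0134). The CD25 KO libraries differed among themselves. *Mki67*, a marker of cycling cells, was at 107, 527, 107, 360.0 and 71.5 CPM in CD25 KO and at 277, 197, 467, 234 and 249 CPM in WT, so that CD25 KO libraries 2 and 4 lay within or above the WT range and the other 3 below it (log2 fold change −0.28 ± 0.48 (SE), adjusted p = 0.706).

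Few chromatin modifiers were called, in both directions. Of 107 tested, 4 were higher and 2 lower, against 1.3% and 1.85% of all genes, so the lower count was near the general share. At an unadjusted p under 0.05 in edgeR 23 were higher and 27 lower, against 3290 and 3143 of all 16986 genes tested. The deacetylase genes *Sirt1* and *Hdac4*, the DNA demethylase gene *Tet2* and the histone methyltransferase gene *Kmt2c* were higher. *Sirt1* was at 55.3, 47.8, 52, 55.4 and 55.2 CPM in WT and 71, 78.7, 75.6, 67.7 and 80.6 CPM in CD25 KO (log2 fold change 0.49 ± 0.07 (SE), adjusted p = 0.00107). *Tet2* was at 194, 164, 157, 182 and 159 CPM against 228, 224, 227, 210.5 and 241 CPM (log2 fold change 0.40 ± 0.07 (SE), adjusted p = 0.00275). With the GC offset these differences were 0.34 and 0.25, smaller but still past the threshold. The lower members were the arginine methyltransferase gene *Prmt5* (−0.49 ± 0.09) and the acetyltransferase gene *Kat2a* (−0.39 ± 0.06). Zinc finger (Zfp) genes were sensitive to the offset: 9 of 326 were higher without the offset, 2 in both fits (*Zfp174* and *Zfp644*), and their median log2 fold change went from 0.10 to 0.01.

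Lists on thymic maturation and MHC class I each gave a few genes, more of them lower than higher. Of 41 genes of maturation and egress, 4 were lower (*Ccr4*, *Itgae*, *Klf2* and *H2-Q6*) and 1, *H2-Q4*, was higher. Of 27 genes of MHC class I, 3 were lower (*H2-Q6*, *Calr* and *Pdia3*) and 1, again *H2-Q4*, was higher. Over all genes tested the shares were 1.85% lower and 1.3% higher. *H2-Q6* was at 50.9, 51.1, 38.7, 65.4 and 36.1 CPM in WT and 17.2, 20.4, 14, 26 and 20.1 CPM in CD25 KO (log2 fold change −1.31 ± 0.18 (SE), adjusted p = 0.00131), and *H2-Q4* at 226, 236, 209, 218 and 212 CPM against 262, 244, 256, 256 and 276 CPM (log2 fold change 0.23 ± 0.05 (SE), adjusted p = 0.00983). The genes of this cluster are close copies of one another, so their counts may have been split between them. None of the 8 GIMAP genes was called by edgeR (2 were higher at an unadjusted p under 0.05, and DESeq2 called 2 higher), and *Psen2*, a subunit of gamma-secretase, was the 1 lower gene of 29 Notch genes (−0.56 ± 0.09).

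Promoters of the lower genes were searched for TTCNNNGAA, the spaced palindrome that STAT proteins bind, which reads the same on both strands. RefSeq promoter windows (GRCm38.p6), each from 250 bases before to 50 bases after a start, were matched by symbol for 10555 of the genes tested. The motif was in 9.58% of the windows of lower genes, in 11% of those lower with the GC offset and in 10.9% of those lower in both fits, against 7% of the windows of all tested genes, 6.24% of those of higher genes and 8.3% of all windows in the table. The E-box CACGTG was in 11.8%, 8.98% and 9.97% of the windows of the same groups of lower genes, against 9.6% over all tested genes, so its share was above or below that of all genes depending on the fit. A match describes letters in a window and not binding.

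Windows on 1 chromosome were left out of the count and choice that follow. Of the other genes lower in both fits, with at least 1 in average log2 CPM, 7 had a window with 2 or more TTCNNNGAA. The 4 with the largest decrease are shown 5′ to 3′ on the strand of the gene, with the motif in capitals, because 1 of them is the IL-18 receptor gene described above and another the proline synthesis gene *Aldh18a1*.
*Cish*, chr9:107296409-107296708, plus strand: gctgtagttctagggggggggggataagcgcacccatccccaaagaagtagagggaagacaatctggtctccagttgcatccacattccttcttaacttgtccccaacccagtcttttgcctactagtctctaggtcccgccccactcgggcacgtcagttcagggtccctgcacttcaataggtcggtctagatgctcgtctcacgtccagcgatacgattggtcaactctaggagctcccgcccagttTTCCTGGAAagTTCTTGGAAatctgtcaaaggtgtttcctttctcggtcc
*Il18r1*, chr1:40465756-40466055, plus strand: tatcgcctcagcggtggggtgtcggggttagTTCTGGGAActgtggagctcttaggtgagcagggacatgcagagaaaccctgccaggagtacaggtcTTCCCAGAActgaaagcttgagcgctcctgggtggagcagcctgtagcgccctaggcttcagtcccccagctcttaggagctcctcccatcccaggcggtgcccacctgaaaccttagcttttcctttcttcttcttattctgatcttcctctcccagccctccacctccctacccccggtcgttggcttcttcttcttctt
*Lta*, chr17:35205302-35205601, minus strand: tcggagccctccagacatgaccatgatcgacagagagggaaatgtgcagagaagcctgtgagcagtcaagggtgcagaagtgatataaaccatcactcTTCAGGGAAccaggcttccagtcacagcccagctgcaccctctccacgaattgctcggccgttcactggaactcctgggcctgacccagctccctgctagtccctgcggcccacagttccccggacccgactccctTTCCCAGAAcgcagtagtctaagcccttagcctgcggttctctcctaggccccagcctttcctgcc
*Aldh18a1*, chr19:40588414-40588713, minus strand: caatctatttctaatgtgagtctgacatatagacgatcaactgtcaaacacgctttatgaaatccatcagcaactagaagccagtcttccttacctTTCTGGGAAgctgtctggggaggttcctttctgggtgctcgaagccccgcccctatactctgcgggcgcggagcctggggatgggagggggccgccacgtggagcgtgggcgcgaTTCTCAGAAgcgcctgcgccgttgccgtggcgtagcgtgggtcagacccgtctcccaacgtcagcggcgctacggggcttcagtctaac
In *Cish* both copies lie within a few bases of each other at the start itself, and in the other 3 promoters the copies are further apart. Log2 fold changes of these genes were −0.85, −0.73, −0.66 and −0.56.

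Among the genes with the largest fold changes were several with few or no counts in one of the groups. *Gm9008* on chromosome 6 was at 4.23, 6.1, 5.98, 4.23 and 4.84 CPM in WT and had no count in any CD25 KO library, which is at least 30.2-fold lower against a floor of 3 counts per library. The long noncoding RNA *Gm26825* on chromosome 5 was at 94.8, 116, 102, 84.6 and 115 CPM in WT and 0.153, 0.096, 0.0561, 0.14 and 0.163 CPM in CD25 KO (adjusted p = 3.34e-12), and *Gm11942* on chromosome 4 at 57.9, 68.5, 66.8, 56.5 and 60.9 CPM against 0.865, 0.288, 0.729, 0.14 and 0.489 CPM (log2 fold change −6.96 ± 0.23 (SE), adjusted p = 3.31e-09). The sodium channel subunit gene *Scn2b* (−3.74 ± 0.26) and the potassium channel gene *Kcnj15* (−3.68 ± 0.43) were lower, and the interferon-inducible gene *Ifi208* (3.10 ± 0.34), *Fgfbp3* (2.12 ± 0.26) and 5830416I19Rik (3.41 ± 0.26) were higher by more than 4-fold. *Gm15459* was also lower, and *Gm30373*, *Gm18752*, *E230034D01Rik*, *Gm47345*, *Gm23153* and *Gm8281*, which are named here only as annotated, were higher. These are not all separate loci. *Gm15459* lies within the span of *Gm26825*, *Gm47345* within that of *E230034D01Rik*, and *Gm18752* close to *Ifi208*. *Gm30373* lies close to *E230034D01Rik* on chromosome 9, and *Gm11942* close to *Rragd* on chromosome 4.

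In 2 cases a gene with more counts in CD25 KO and a gene with fewer were near-identical copies. A read from a stretch that is the same in both copies fits both, so the counts of either gene alone do not give its RNA level. *mt-Nd3*, a subunit gene of mitochondrial complex I, had no count in any WT library and 21, 55, 27, 44 and 84 counts in CD25 KO (adjusted p = 0.00144). *Gm28438*, an unprocessed pseudogene on chromosome 1 (24612775 to 24613119, minus strand, GRCm38), had 56, 46, 37, 52 and 51 counts in WT and 1, 1, 1, 0 and 0 in CD25 KO (adjusted p = 6.05e-06). Aligned over 345 bases, the annotated transcripts differ at 1 base, T3C (the base of *mt-Nd3* first, counted from 1 at its 5′ end). The first 30 bases of each transcript show this difference in capitals.
*mt-Nd3*: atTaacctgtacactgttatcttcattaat
*Gm28438*: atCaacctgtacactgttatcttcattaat
The sum of both genes was 37 to 56 counts in WT and 22 to 84 in CD25 KO, so the groups overlapped in the sum while each gene was separated. Whether the mouse lines differ at the base in capitals was not tested. edgeR called no other protein-coding gene of the mitochondrial genome (4 of 8, *mt-Nd3* included, were higher at an unadjusted p under 0.05), and DESeq2 called *mt-Nd3* and 1 more. The median log2 fold change of these 8 genes was 0.27 without the GC offset and −0.14 with it. In the plot of the copies, the whole column changes colour between the groups.

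The second case is a pair of histone H4 genes on chromosome 13. *Hist1h4m* had 1, 0, 2, 2 and 2 counts in WT and 312, 811, 345, 789 and 453 in CD25 KO (adjusted p = 4.26e-07). *Hist1h4n* had 1290, 1653, 2051, 1302 and 1599 counts in WT and 209, 591, 258, 630 and 322 in CD25 KO (log2 fold change −1.84 ± 0.24 (SE), adjusted p = 0.00112). Over 402 aligned bases the transcripts differ at 1 base, G36A (the base of *Hist1h4m* first), which stands in capitals in bases 21 to 50.
*Hist1h4m*: tacagttttgtcttcGtcatgtctggtcgt
*Hist1h4n*: tacagttttgtcttcAtcatgtctggtcgt
*Hist1h4m* took 55.6% to 59.9% of the counts of the pair in the CD25 KO libraries and 0.153% or less in WT. The 5 CD25 KO libraries kept nearly the same share although the sum ran from 521 to 1419. Of 53 clustered histone genes these were the 2 called.

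**Figure D4:**
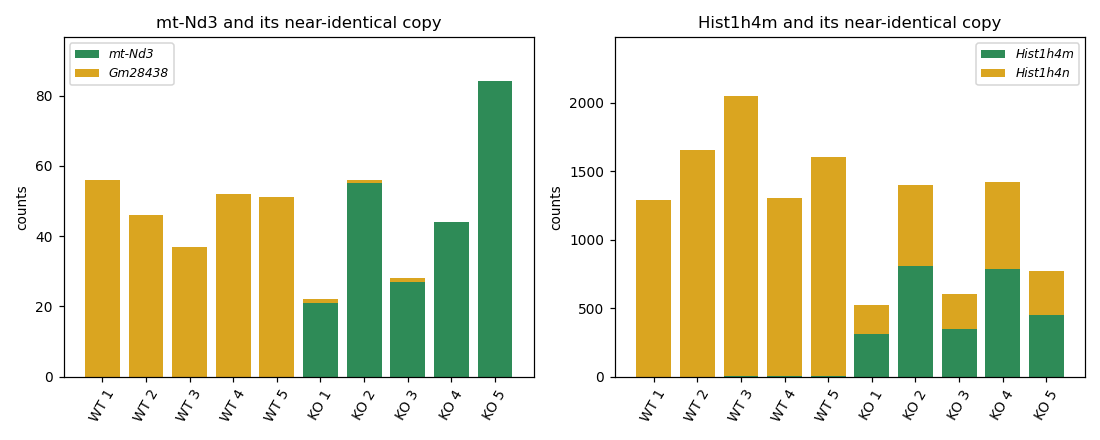
Counts of 2 pairs of near-identical genes in the 10 thymic Treg libraries, stacked. Left, the mitochondrial gene *mt-Nd3* and the pseudogene *Gm28438*; right, *Hist1h4m* and *Hist1h4n*. WT columns hold almost only *Gm28438* and *Hist1h4n*, and CD25 KO columns hold *mt-Nd3* and a mixture in which *Hist1h4m* is 55.6% to 59.9%.

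Around the *Foxp3* locus, which carries a different reporter in each group, 6 genes were lower and 2 higher of 26 tested within 500 kb (30.8%, against 6.16% of all genes called in either direction). The same 8 were found with the GC offset, and no further call was added up to 5 Mb on either side (8 of 40). *Ccdc22*, whose end overlaps *Foxp3*, had 40 to 70 counts in the WT libraries and 0 to 2 in CD25 KO. *Gm36995* and *Flicr* overlap *Foxp3* as well. Reads of overlapping genes cannot be told apart without strand, and whether strand was used in counting is not given in the sources used here. The unnamed gene *Gm36995* (−2.50 ± 0.26), *Flicr*, a noncoding RNA (−0.54 ± 0.11), *Usp27x* (−1.25 ± 0.20), *Tfe3* (−0.46 ± 0.08) and *Gata1* (−0.83 ± 0.13) were lower. *Syp*, which encodes the synaptic vesicle protein synaptophysin, was higher, at 2.14, 3.16, 2.81, 2.54 and 2.53 CPM in WT and 7.94, 6.09, 7.63, 6.5 and 6.19 CPM in CD25 KO (log2 fold change 1.38 ± 0.14 (SE), adjusted p = 0.000169), and *Prickle3* was higher by less (0.38 ± 0.07).

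Around *Il2ra* on chromosome 2, edgeR called none of 14 genes within 500 kb. At an unadjusted p under 0.05, 1 of the 14 was lower and 7 were higher, and DESeq2 called 1 lower and 2 higher. Within 5 Mb, 12 of 62 were called, 1 lower and 11 higher, and 3 with the GC offset. These 3 were 4.84% of the 62, against 2.47% lower and 1.75% higher over all genes with the offset. They were *Vim*, which was lower, and *St8sia6* and *Gm37126*, which were higher, all within 2 Mb of *Il2ra*. Of 451 windows of 5 Mb with at least 8 tested genes, 3 had at least 20% of their genes called in both fits. They were chromosome 5 from 60 to 65 Mb (5 of 17, among them *Tlr1*, *Rell1* and *Pgm2*), the X chromosome from 5 to 10 Mb, which holds *Foxp3* (9 of 37), and the X chromosome from 165 to 170 Mb (4 of 19, among them *Mid1* and *Ofd1*). *Mid1* was at 49.6, 27.9, 16.6, 16.4 and 26.6 CPM in WT and 4.99, 4.75, 7.52, 9.39 and 5.11 CPM in CD25 KO (log2 fold change −2.11 ± 0.31 (SE), adjusted p = 0.00195). *Mid1-ps1* and *Gm21742*, annotated on the Y chromosome, were lower in CD25 KO as well, and they had counts in WT libraries 3 and 5, in which *Xist* was high and the Y genes *Ddx3y*, *Eif2s3y*, *Kdm5d* and *Uty* were near 0. By the same genes CD25 KO library 4 came from female cells and the other CD25 KO libraries from male cells.

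**Figure D5:**
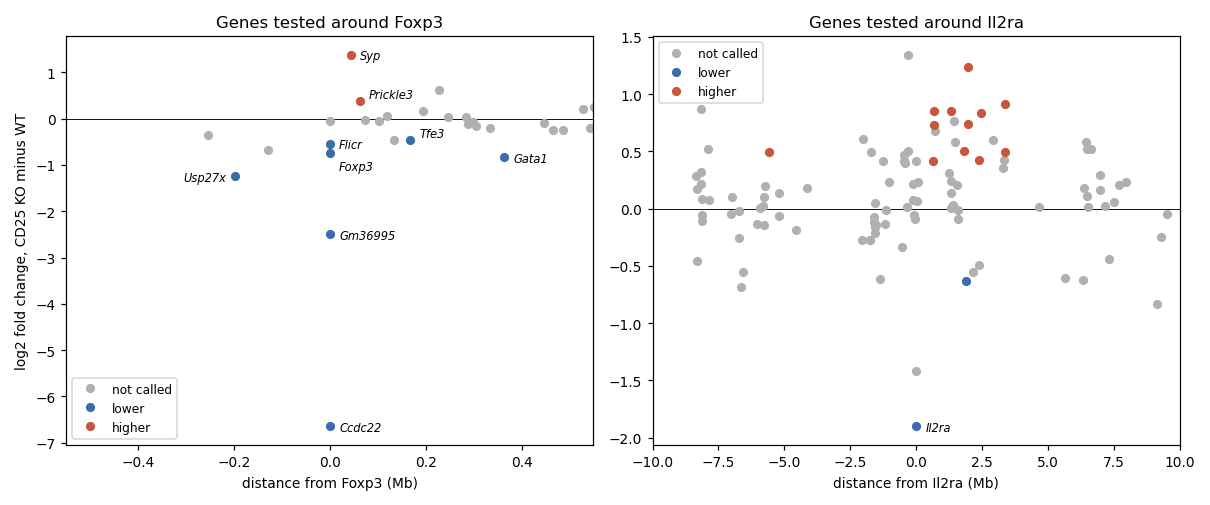
Log2 fold change (CD25 KO minus WT) of the tested genes around *Foxp3* (left, within 0.55 Mb) and around *Il2ra* (right, within 10 Mb), against the distance between genes in Mb; colours mark calls at FDR < 0.01 without the GC offset. Called genes cluster within 500 kb of *Foxp3* in both directions, while within 500 kb of *Il2ra* no gene but *Il2ra* itself is coloured; the fitted value of *Ccdc22* rests on 2 counts in CD25 KO.

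Genes known to differ between C57BL/6J and C57BL/6N mice were looked up as a check of the lines. *Nnt*, which lacks exons in C57BL/6J, was counted at 55.2, 58.3, 60.3, 58.6 and 56.7 CPM in WT and 54.8, 56.2, 55.4, 56.2 and 55.6 CPM in CD25 KO (log2 fold change −0.06 ± 0.05 (SE), adjusted p = 0.401). The groups overlapped, and gene counts do not show which exons were read. *Wdfy1* was lower, at 26.6, 26.5, 22.5, 29 and 26.2 CPM against 12.1, 11.7, 16.2, 13 and 16.6 CPM (log2 fold change −0.91 ± 0.11 (SE), adjusted p = 0.000602). *Ide* was higher without the offset (0.54, adjusted p = 0.00246) and not called with it (0.41, adjusted p = 0.0178), and its groups did not overlap. *Fgfbp3*, which lies close to *Ide* on chromosome 19, was higher in both fits (2.12 ± 0.26 without the offset). *Cyfip2* (−0.15 ± 0.06) and *Herc2* (0.10 ± 0.04) were not called. *Crb1*, *Nlrp12*, *Entpd4* and *Entpd4b* were near 0 in all libraries and not tested. Whether any one gene's difference comes from the lines, the reporter or the loss of CD25 was not tested.

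The summed level of B cell markers was 151 to 214 CPM in WT and 97.1 to 143 CPM in CD25 KO, without overlap. edgeR called none of the markers of the other 7 kinds of cell without the offset, while DESeq2 called 2 markers of double-positive thymocytes and 1 of the erythroid list higher. Of 13 B cell markers tested, *Ighm* (−0.82 ± 0.08) and *Ighd* (−1.86 ± 0.30) were lower, and their part in the lower genes was not tested. Markers of myeloid and dendritic cells (68.5 to 166 CPM against 68.7 to 150), CD8 T cells (20 to 54.1 against 20.8 to 32.6), NK cells (17.6 to 25 against 11.4 to 24.1) and double-positive thymocytes (366 to 545 against 435 to 640) overlapped between the groups. The noncoding RNA *Gm26917* took 9.79% to 11.4% of the counts in WT and 5.76% to 9.17% in CD25 KO. In sorted bulk samples, fewer cells with a transcript and less of it per cell cannot be told apart.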

How the data were processed

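The series measured gene expression in Tregs sorted from thymus and spleen, and the 10 thymic libraries are used here, grouped by the labels. The authors made libraries from 25 ng of RNA depleted of ribosomal RNA, sequenced paired-end reads of 75 bases, aligned them to GRCm38 with STAR and counted them over GENCODE M13 genes with featureCounts, and they deposited raw counts per gene without normalization. Gene position, length and GC content were taken from GENCODE M21 of the same build. Counts were filtered with filterByExpr, scaled by TMM and tested with the quasi-likelihood test of edgeR 4.0.16 in R 4.3.3, with Benjamini-Hochberg adjustment over all genes tested and a threshold of FDR < 0.01. For the GC offset, a lowess curve of log2 CPM against GC content (span 0.3) was removed from each library. DESeq2 1.42.0, other scalings and filters and the omission of each library were run as alternatives. The script was tested on simulated data. At these depths 3 counts correspond to 0.125 to 0.174 CPM, and levels near this floor are imprecise.

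The genes and 39 lists of related genes were chosen with earlier results of these data known. Named genes were *Il2ra*, up to 2 genes per list and direction with the largest change among those called in both fits, the 10 largest called changes in each direction without overlap of the groups (all of these at 1 or more in average log2 CPM), genes with 3 counts or fewer in every library of one group and 30 or more in every library of the other, called genes within 500 kb of *Foxp3* or *Il2ra*, and genes of the substrain and sex chromosome lists. Further list members and genes of the dense windows were added after their values were seen. Lists are described by counts and medians and were not tested as sets. Some genes called are not reported here by name.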

Additional observations from a re-analysis of the deposited data

Results flagged for a closer look

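In 20 of 229 groups of 5 libraries, the highest or the lowest library lay further from the others than Dixon's 95% criterion allows, which chance does in about 1 of 20 groups. In WT, library 4 had 15.1 CPM of *Il1rl1* (the others 5.52 to 7.41), library 3 had 23.7 CPM of *Ly6a* (18.9 to 20.3), 115 CPM of *Acsl5* (88.1 to 95.1) and 94.3 CPM of *Hist1h4n* (61.3 to 70.5), library 2 had 96.3 CPM of *Aldh18a1* (85 to 87.5), and library 5 had 25.5 CPM of *Ide* (29.1 to 30.1). In CD25 KO, library 5 had 76.7 CPM of *Cd274* (64.3 to 67.3), 4.73 CPM of *Runx3* (8.9 to 9.63), 42.5 CPM of *Acvr2a* (31 to 33.5), 182 CPM of *Rpl35a* (147 to 151) and 452 CPM of *Herc2* (464 to 466). Library 2 had 4.56 CPM of *Rragd* (3 to 3.18). Library 3 had 84.9 CPM of *Itgb1* (96.5 to 101), 0.112 CPM of *Ccdc22*, which had no count in the others, and a summed level of erythroid and platelet markers of 53.2 CPM (13.2 to 19). Library 4 had 0.0934 CPM of *Entpd4b*, listed at 0 in the others, and it was the 1 female library of its group, with 2.42e+03 CPM of *Xist*, 0.14 CPM of *Eif2s3y*, and 0.0467 CPM each of *Kdm5d* and *Uty*.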

How the results depend on the processing

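Counts of lower and higher genes are given in this order. They were 1246 and 1517 with DESeq2, 1585 and 1296 in a fit of all 18 libraries, 1858 and 2093 at FDR < 0.05, and 34 and 12 when tested against a change of 1.5-fold. The GC offset gave 420 and 297, and an offset for GC content and length 438 and 347. The other scalings and filters kept both counts within 1.5 times (473 and 551 with RLE, 440 and 808 with upper-quartile scaling, 609 and 698 without a filter, 476 and 651 with at least 10 counts in every library). DESeq2 kept 507 of the 508 lower genes. Leaving out 1 library at a time, without or with the GC offset, gave 179 to 516 lower and 90 to 571 higher genes. Without the offset, the lower count moved by more than 1.5 times when WT library 1, 2, 3 or 5 or CD25 KO library 1 or 3 was left out (183 to 319), and the higher count for WT library 2, 3 or 5 or CD25 KO library 1, 2 or 3 (151 to 354). Alternatives chosen after seeing the data left out CD25 KO libraries 2 and 4 (1232 and 776, or 1266 and 600 with the GC offset), or WT library 2 and CD25 KO library 5 (265 and 247, or 167 and 120). The correlation with GC content was −0.44 to −0.35 when 1 library was left out and 0.00023 with the offset. Near *Il2ra*, 3 genes were called with the offset.

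A replicate block, which treats libraries with the same number as a pair, gave 158 and 51 genes, or 172 and 58 with the GC offset. The labels do not say that the numbers mark anything shared, and same-numbered libraries deviated with correlations of −0.239 to 0.144, so they were not treated as pairs.

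Of 93 named genes called, none changed direction under the 36 settings. Many were chosen because they were called in both fits or changed most, so an unchanged direction was largely fixed by the choice. Of the 93, 47 passed in every fit that left out 1 library, without and with the GC offset. *Cd86*, *Cd274*, *Itgae*, *Lrrc32*, *Furin*, *Nfil3*, *Nrp2*, *Lmo4*, *Gbp8*, *Aldh18a1* and *Bcl2l1* were among those that missed the threshold in some of these fits.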
